A study of Homo sapiens with 18 samples.

Results

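The 9 genes described here act downstream of fibroblast growth factor (FGF) receptors. They were chosen by name from 19775 genes measured, with earlier results of these data known. The shares of all genes set beside their counts are therefore a description and no test. DUSP4, DUSP5 and DUSP6 encode phosphatases that switch off the kinase ERK, and IL17RD encodes a membrane inhibitor of FGF signalling. ETV1, ETV4 and ETV5 encode ETS transcription factors, and EGR1 and IER3 are early response genes. Each gene is represented by 1 of the 25 probe sets that name a member alone: the one with the highest mean of log2(signal + 16), leaving out those ending in _x_at where a gene has another.

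H9 is an established human embryonic stem cell line, abbreviated ES here. RNA pools were hybridised to Affymetrix expression arrays, 18 arrays in 6 groups of 3, all from this 1 line. Neuroepithelium grown with basic FGF (bFGF, also called FGF2) from day 6 was sampled at day 10 and at day 17. Its counterparts at day 10 and day 17 received no added bFGF; the labels call the cells primitive at day 10 and definitive at day 17. The other groups were day 6 embryoid bodies, which are aggregates in suspension, and the undifferentiated ES cells. The labels give 20 ug/ml bFGF for day 10 and 20 ng/ml for day 17. Which unit held at day 10 was not resolved, so the labelled dose and the day cannot be told apart where the bFGF effects of the days are set side by side. No label says that the neuroepithelial pools came from separate cultures, and some ES and embryoid body pools share cell passages. The p-values therefore measure the spread between these samples, which may be technical.

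Receptors bound by an FGF activate a cascade that runs from RAS through the kinases RAF and MEK to ERK, which enters the nucleus and phosphorylates transcription factors. Within minutes this induces immediate early genes such as EGR1, through serum response factor bound at CArG boxes. Over hours it raises ETV4, ETV5 and a set of inhibitors, among them DUSP6, IL17RD and the Sprouty proteins, which feed back on the pathway. In the embryo the same genes mark tissue close to FGF sources, such as the boundary of midbrain and hindbrain and the front of the forebrain.

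All arrays had been scaled to 1 level, but pool 2 of the 4 neuroepithelial groups had a median signal of 48.7 to 50.8, against 25.2 to 32.7 on the other 14 arrays. The ratio of 3' to 5' ACTB probe sets, a sign of RNA integrity, was 2.27 to 2.64 in pool 2 of all groups and 1.17 to 1.75 elsewhere. DUSP6, ETV4 and ETV5 had their lowest signal in pool 2 in each of the 4 neuroepithelial groups, as did 13.7% of all genes, and whether the array set lowered them was not tested. Signals are linear, in the deposited units. Changes are log2 differences of (signal + 16) ± standard error from limma, and a change was called where the Benjamini-Hochberg adjusted p over all genes was under 0.05. The arrays have no detection calls here, and 3 arrays a group limit the precision.

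Promoter windows of RefSeq (GRCh38.p14, from 250 bases before to 50 after the start site) were used for 4 members: DUSP6, IL17RD, ETV1 and EGR1, 10 windows in all. The DUSP6 window, chr12:89352452-89352751 on the minus strand, is shown because DUSP6 had the largest bFGF response of the members at day 17. Its 6 copies of the ETS core GGAA on either strand are in capitals. The EGR1 window, chr5:138465229-138465528 on the plus strand, is shown with its CArG boxes in capitals. The ETV1 window, chr7:13991376-13991675 on the minus strand, is 1 of 6 for that gene and is shown with the letters of a binding octamer of Capicua (CIC), a repressor of ETV genes, in capitals.
DUSP6: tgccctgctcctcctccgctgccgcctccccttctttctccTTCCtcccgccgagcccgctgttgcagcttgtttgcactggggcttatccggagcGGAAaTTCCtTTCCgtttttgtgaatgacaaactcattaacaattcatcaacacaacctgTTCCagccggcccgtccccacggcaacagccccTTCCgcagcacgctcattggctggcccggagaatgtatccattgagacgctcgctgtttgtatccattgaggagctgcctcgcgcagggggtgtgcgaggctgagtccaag
EGR1: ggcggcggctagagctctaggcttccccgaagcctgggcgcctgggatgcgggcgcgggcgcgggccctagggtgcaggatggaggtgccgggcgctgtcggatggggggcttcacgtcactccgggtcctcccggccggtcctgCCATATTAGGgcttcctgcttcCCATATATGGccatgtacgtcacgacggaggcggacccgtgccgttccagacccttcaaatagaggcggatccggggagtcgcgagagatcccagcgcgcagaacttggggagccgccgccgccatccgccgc
ETV1: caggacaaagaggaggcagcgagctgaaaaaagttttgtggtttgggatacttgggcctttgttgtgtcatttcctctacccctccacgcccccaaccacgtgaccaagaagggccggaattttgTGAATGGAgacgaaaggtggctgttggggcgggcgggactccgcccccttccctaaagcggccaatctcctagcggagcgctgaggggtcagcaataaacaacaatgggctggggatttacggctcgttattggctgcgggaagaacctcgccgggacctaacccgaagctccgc
Both strands of 35116 such windows were searched for each motif. The EGR1 window holds 2 CArG boxes, from -105 to -96 and from -83 to -74 relative to the start site; 1.29% of all windows hold at least 1 and 0.0313% hold 2 or more. The octamer TGAATGGA lies from -125 to -118 in the ETV1 window, and 1.03% of windows hold it. TGAATGAA, the other CIC octamer searched (1.65% of windows), and the ETS consensus CCGGAAG (10.3%) have no match in the 10 windows. Nor have the AP-1 site TGANTCA (7.71%) and the cyclic AMP element TGACGTCA (1.85%). Other forms of the CIC octamer were not searched, so their absence from these windows is not shown. The printed DUSP6 window holds the letters tccattga at more than 1 place. Read on the other strand, they are TGAATGGA with C for G after the initial T. The share of windows with this run was not computed, and whether CIC binds it was not tested. GGAA overlaps with CCGGAAG and is present in 95.5% of windows. A match is a run of letters and not a measured site.

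The first question was what continued bFGF changed. At day 17, 4 of the 9 genes rose with bFGF: DUSP6, ETV4, IER3 and IL17RD. None fell. Over all genes 0.182% were called higher and 0.157% lower, 67 genes in total. With the pool number as a block, ETV5 was called too, making 5 of 9 against 0.293% of genes called higher, among 120 genes called. The median change of the 9 was 1.29, against -0.01 for all genes. In every pool the array with bFGF exceeded the same-numbered one without it for 7 of the 9, the exceptions being DUSP5 and EGR1. The share of all genes higher in every pool was not computed, so this count is a description of the 9 only.

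The labelled cell types were checked against marker lists. NANOG, a pluripotency factor, averaged 20.9 in untreated day 10 and 3203 in ES cells. Of 11 neuroepithelial markers 8 rose between day 6 and untreated day 10, HES5 reaching 2238, against 50.7 at day 6. The summed signals of this list with and without bFGF overlapped at both days, and no marker of it was called with bFGF. Single markers shifted in both directions. At day 17 ZIC1 (8042 against 4753) and FABP7 averaged higher with bFGF, and CDH2 was alike. The rest of the list averaged lower, PAX6 among them (1221 against 2213). At day 17 the summed signal of 7 neuronal markers was 8851 to 13101 with bFGF and 13463 to 15391 without it. Each of the 7 averaged lower with bFGF, but none was called. TUBB3 made up the largest part of both sums (means 6113 and 6598). Of 7 endoderm and yolk sac markers AFP and APOB were called lower with bFGF, AFP averaging 127 with bFGF and 829.96 without. The sum of the list was 387 to 440.3 with bFGF and 1248 to 2157 without it. GATA6 (101 against 67.3) and APOA1 (27.3 against 17.3) averaged higher with bFGF, and the rest of the list lower. The sum of 4 trophoblast markers was 151 to 317.0 with bFGF and 317.1 to 384 without it. None of the 4 was called. Of 7 pluripotency markers CDH1, an epithelial cadherin, was lower with bFGF (59.99 against 218). At day 10 the sum of 9 mesenchyme and muscle markers was 9859 to 10935 with bFGF and 7478 to 8676 without it. None of the 9 was called. COL3A1 (599 against 763) and LUM (627 against 667) averaged lower with bFGF, and the rest of the list higher. At day 17 the sums of this list overlapped. Between day 6 and untreated day 10, 5 of the 9 mesenchyme and muscle markers and 3 of the 7 neuronal markers also rose, and 5 of the 7 pluripotency markers fell. The part of these cells in the changes of the 9 genes was not tested, and in such bulk pools fewer cells of a type and less RNA per cell cannot be told apart.

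DUSP6 (probe set 208891_at), a cytoplasmic phosphatase specific for ERK, had signals of 4082, 2397 and 3642 in pools 1 to 3 with bFGF at day 17 and 413, 386 and 581 without it. The lowest pool with bFGF exceeded the highest without it by more than the spread within either group. The change was 2.82 ± 0.36 (7.05-fold on this scale, adjusted p = 0.00231), and within pools it was 3.26, 2.58 and 2.61. No single array was needed for the call. In a fit of the 2 groups alone, in which no gene was called, its adjusted p was 0.0874. At day 10 DUSP6 read 3384, 1775 and 4663 with bFGF and 2219.8, 1208 and 2685 without it. The groups overlapped, and the change of 0.65 ± 0.36 was not called (adjusted p = 0.999996), although each pool was higher with bFGF than its same-numbered counterpart. At the earlier stages, DUSP6 read 307, 244 and 456 in embryoid bodies and 261, 284 and 368 in ES cells. The labels do not say whether the medium of those cells held bFGF. The range of the untreated day 17 pools overlapped that of the embryoid bodies.

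**Figure D1:**
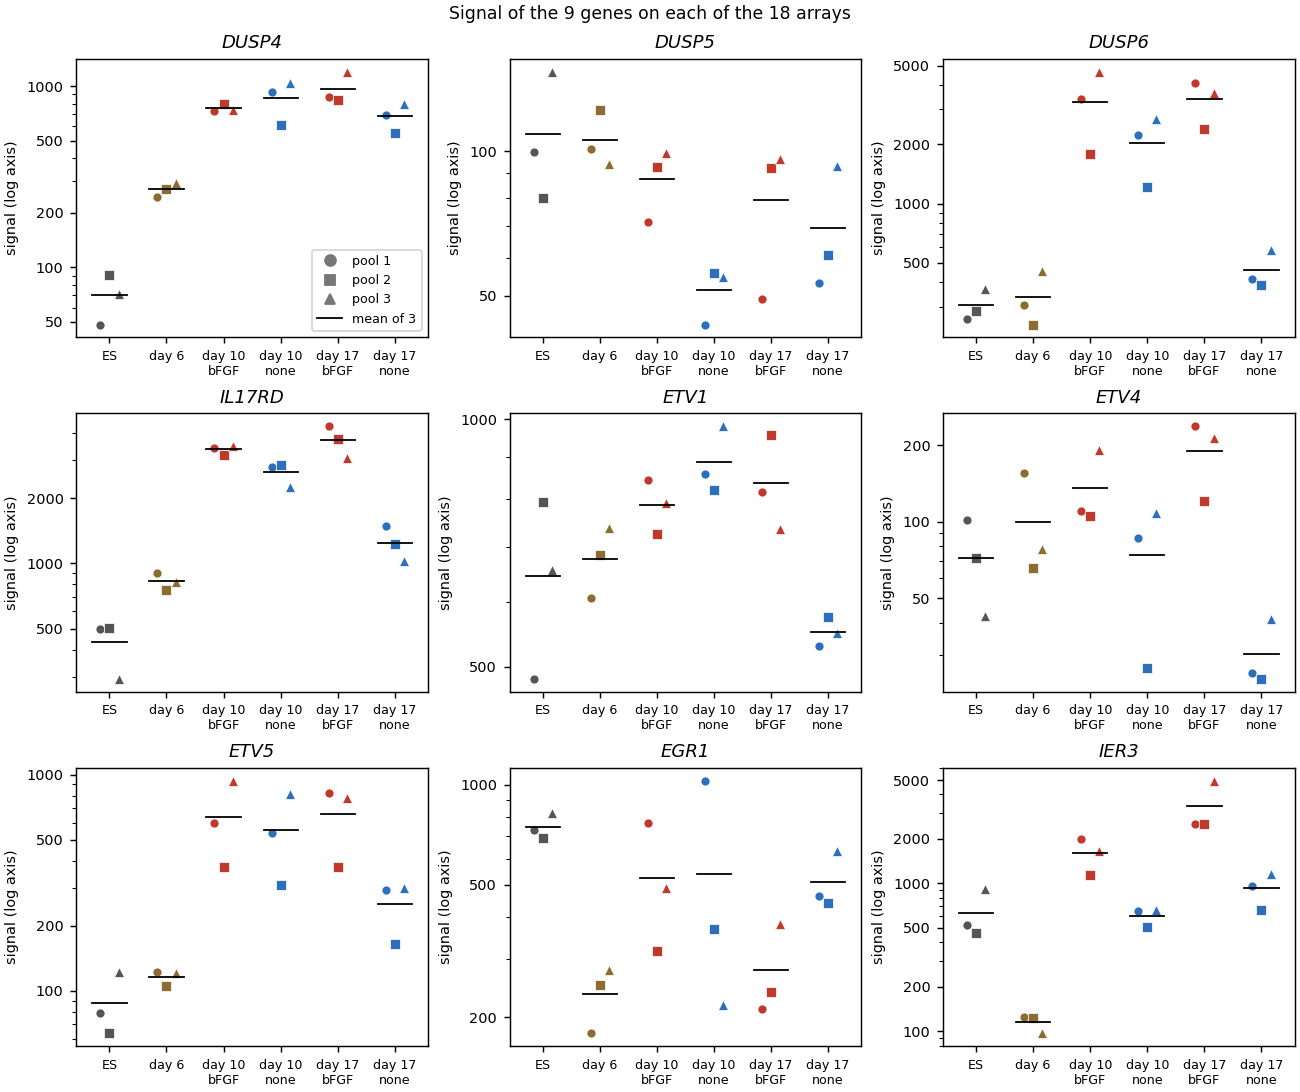
Signal of the 9 genes on each of the 18 arrays (log axis, deposited units), with 1 point a pool and a line at the mean of 3. DUSP6 stood at 2397 to 4082 in the day 17 pools with bFGF and at 386 to 581 in those without.

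IL17RD (probe set 227997_at), also known as Sef, read 4292, 3742 and 3071 with bFGF at day 17 and 1487, 1223 and 1024 without it. The groups lay apart, and the change was 1.56 ± 0.22 (2.96-fold, adjusted p = 0.00436). Within pools it was 1.52, 1.60 and 1.57, the narrowest spread among the called members. The call held without any 1 array, but was lost without pool 2 of the neuroepithelial groups (adjusted p = 0.0727). At day 10 the pools with bFGF read 3415, 3156 and 3489 and those without it 2775, 2854 and 2251. These also did not overlap, yet the change of 0.36 ± 0.22 was not called (adjusted p = 0.999996). Earlier the gene had read 904, 756 and 823 in embryoid bodies and 495, 505 and 293 in ES cells.

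ETV4 (probe set 1554576_a_at), a member of the PEA3 group of ETS factors like ETV1 and ETV5, read 237, 120.2 and 212 with bFGF at day 17 and 25.4, 24.1 and 41.5 without it. The groups lay apart. The median signals of the 3 untreated arrays were 31.9, 49.9 and 32.7. In untreated pools 1 and 2 ETV4 was below its array's median, and in pool 3 above it. The change was 2.12 ± 0.41 (4.35-fold, adjusted p = 0.0321). This call was lost without any 1 of the 3 untreated day 17 arrays or without bFGF pool 1 or 3 (adjusted p = 0.0739 to 0.202). Quantile scaling (adjusted p = 0.0662) and a pseudocount of 1 (adjusted p = 0.101) also lost it in limma. At day 10 ETV4 read 110.2, 105 and 192 with bFGF and 86.4, 26.7 and 108 without it, a change of 0.85 ± 0.41 that was not called. In embryoid bodies it had read 156, 65.6 and 78.2, and in ES cells 101, 71.9 and 42.4. Those early groups overlapped each other and the day 10 pools.

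ETV5 (probe set 203349_s_at) read 822, 374 and 776 with bFGF at day 17 and 292, 164 and 300.1 without it. Pool 2 was the lowest in both groups, and every pool with bFGF exceeded every one without. The change of 1.29 ± 0.39 missed the threshold (adjusted p = 0.439) and passed it with the pool number as a block (adjusted p = 0.0129). Its within-pool changes were 1.44, 1.11 and 1.32. At day 10 the gene read 599, 375 and 939 with bFGF and 536, 307 and 813 without it, which overlap widely (0.21 ± 0.39). It had been at 105 to 123 in embryoid bodies and 63.5 to 122 in ES cells.

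ETV1 (probe set 221911_at) had the smallest spread of the 9 genes. It read 816, 957 and 736 with bFGF at day 17 and 531, 575 and 549 without it, groups that did not overlap. The change of 0.58 ± 0.19 was not called (adjusted p = 0.545; with the block, 0.244). At day 10 it read 844, 725 and 791 with bFGF and 858, 821 and 981 without it, lower with bFGF in each pool by a change of -0.17 ± 0.19 that was not called. Its residual standard deviation was 0.187 on the log2 scale, against a median of 0.388 over all genes. The corresponding figures were 0.523 for ETV5 and 0.541 for ETV4.

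IER3 (probe set 201631_s_at), a short-lived regulator of cell survival and a substrate of ERK, read 2511, 2536 and 4965 with bFGF at day 17 and 962, 665 and 1161 without it. The groups lay apart, with a change of 1.79 ± 0.32 (3.45-fold, adjusted p = 0.0190). Without untreated pool 1 or 2, or without bFGF pool 1 or 3, the call was lost (adjusted p = 0.0504 to 0.113). At day 10 it read 2003, 1148 and 1645 with bFGF and 649.7, 506 and 661 without it, again with no overlap. That change of 1.35 ± 0.32 had the largest size of the members at day 10 and missed the threshold (adjusted p = 0.270). It was called in 2 other fits, with the pool number as a random block (adjusted p = 0.0467) and with the pool 2 arrays as a term (adjusted p = 0.0465). Among the early groups it read 124, 123 and 96.8 in embryoid bodies and 522, 465 and 919 in ES cells.

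EGR1 (probe set 227404_s_at), a zinc finger transcription factor, read 212, 239 and 381 with bFGF at day 17 and 462, 440.0 and 633 without it. The groups lay apart, and EGR1 was the 1 member lower with bFGF in all 3 pools of day 17 (-1.07, -0.84 and -0.71). The change of -0.87 ± 0.43 was not called (adjusted p = 0.99991), and its 95% interval ran from -1.78 to 0.03. At day 10 it read 768, 317 and 491 with bFGF and 1029.9, 367 and 218 without it, and pool 1 was the highest in both groups. The gene had the largest residual standard deviation of the 9 genes, 0.571.

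DUSP4 (probe set 204014_at), a nuclear phosphatase of ERK and JNK, read 869, 836 and 1202 with bFGF at day 17 and 694, 553 and 799 without it. The change of 0.49 ± 0.24 was not called (adjusted p = 0.99991). At day 10 its range was 734 to 799 with bFGF and 613 to 1039 without it, a change of -0.15 ± 0.24. DUSP5 (probe set 209457_at), a nuclear phosphatase specific for ERK, stayed between 43.5 and 147 on all 18 arrays. It read 71.4, 92.6 and 99.2 with bFGF at day 10 and 43.5, 55.6 and 54.8 without it, groups apart by 0.62 ± 0.26, which was not called. At day 17 it read 49.1, 92.3 and 96.6 with bFGF and 53.2, 60.8 and 93.1 without it, which overlap (0.15 ± 0.26).

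**Figure D2:**
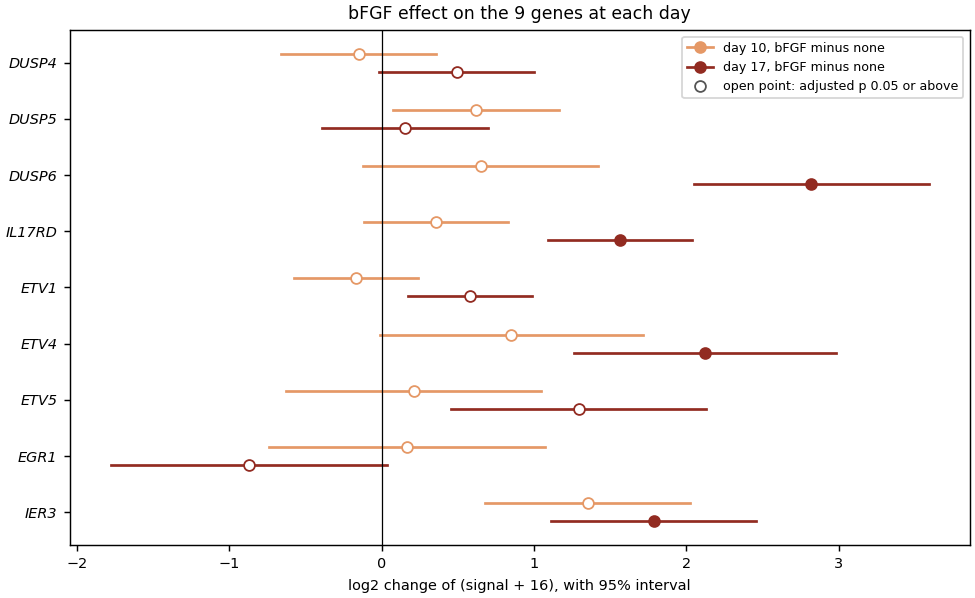
Change with bFGF at each day for the 9 genes, as log2 of (signal + 16) with bFGF minus without it, with 95% intervals. Filled points were called; DUSP6, IL17RD, ETV4 and IER3 are filled at day 17 and no gene is filled at day 10.

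At day 10 the count of members called was 0 by limma and 0 with the pool number as a fixed block. Both alternatives that call IER3 count 1. At an unadjusted p under 0.05 there were 2 members, and the share of all genes at that threshold was not computed. Over all genes 0.0809% were called higher and 0.00506% lower, 17 genes in all (34 with the block). The median change of the 9 was 0.36, against -0.02 for all genes. Whether the bFGF effect differed between the days was tested directly. No member was called (0 of 9), and over all genes 0% were called higher and 0% lower. With the block 1 gene was called, and no member. At an unadjusted p under 0.05 there were 4 members, again with no share of all genes computed. The largest differences, day 17 effect minus day 10 effect, were 2.17 ± 0.51 for DUSP6 (adjusted p = 0.666), 1.27 ± 0.58 for ETV4 and 1.21 ± 0.32 for IL17RD. Over the alternatives the adjusted p of the DUSP6 difference ranged from 0.0566 to 0.999989.

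The course to neuroepithelium without added bFGF was then followed step by step, from ES cells onward. Between ES cells and day 6 embryoid bodies, 4 of the 9 genes changed: DUSP4 and IL17RD rose, and EGR1 and IER3 fell. Over all genes 2.19% were called higher and 1.66% lower, 762 in total (1454 with the block). DUSP4 had 245, 271 and 293 at day 6 and 48.4, 91.0 and 70.9 in ES cells (1.76 ± 0.24, adjusted p = 0.000294), and IER3 fell by 2.26 on the log2 scale (adjusted p = 0.000364). Both kept their calls in all 31 alternatives. IL17RD changed by 0.95 ± 0.22 (adjusted p = 0.0221) and lost its call without ES pool 3 or day 6 pool 1 or 3 (adjusted p = 0.0774 to 0.111). EGR1 read 179, 249.5 and 278 at day 6 and 729, 689.7 and 823 in ES cells, with no overlap. Its change of -1.62 ± 0.43 only just passed (adjusted p = 0.0448). It lost its call without any 1 of the 3 ES, 3 day 6 or 3 untreated day 17 arrays, bFGF pool 3 of day 10 or bFGF pool 1 or 2 of day 17 (adjusted p = 0.0527 to 0.184). Marker lists moved at the same step. Of 9 mesenchyme and muscle markers 3 fell and 1 rose, with sums of 1590.3 to 1719 at day 6 and 5252 to 6453 in ES cells. Of 6 neural crest markers 5 rose and 1 fell, 5 of 11 neuroepithelial and 2 of 4 trophoblast markers rose, and 2 of 7 pluripotency markers fell. Their part in the changes of the members was not tested.

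Between day 6 and untreated day 10, 5 of the 9 genes rose and none fell, against 3.73% of all genes called higher and 2.64% lower (1259 genes). DUSP6 changed by 2.52 ± 0.36, IER3 by 2.25 ± 0.32, ETV5 by 2.00 ± 0.39, IL17RD by 1.64 ± 0.22 and DUSP4 by 1.59 ± 0.24. Their adjusted p-values ran from 0.000188 to 0.00434, and all 5 were called in all 31 alternatives. The median of all genes itself shifted by 0.09 in this step (-0.02 after quantile scaling), and relative to it DUSP6 changed by 2.42 and DUSP4 by 1.49. For every one of the 5, each day 10 pool exceeded each day 6 pool. DUSP5 read 43.5, 55.6 and 54.8 at day 10 and 101, 122 and 94.1 at day 6, lower in every pool, and its change of -0.85 ± 0.26 missed the threshold (adjusted p = 0.0603). DUSP5 was called lower after quantile scaling (-1.07, adjusted p = 0.0239), among the upper 60% of genes (adjusted p = 0.0324) and with the pool 2 arrays as a term (adjusted p = 0.0419). Without ES pool 3 or without bFGF pool 1 of day 17 it was called as well (adjusted p = 0.0443 and 0.0403). EGR1 changed by 0.88 ± 0.43 and was not called; its day 10 pools of 1029.9, 367 and 218 spanned part of the day 6 range.

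Between day 10 and day 17 without bFGF, DUSP6 and IL17RD fell, 2 of 9 against 0.536% of all genes called lower; none rose, against 1.45% called higher (393 genes). DUSP6 changed by -2.05 ± 0.36 (adjusted p = 0.00585), and kept its call without any 1 array. IL17RD changed by -1.08 ± 0.22 (adjusted p = 0.0177), a call lost without day 10 pool 1 or 2 or day 17 pool 2 or 3 (adjusted p = 0.0598 to 0.0911). With the pool number as a block ETV1 (-0.67, adjusted p = 0.0494) and ETV5 (-1.03, adjusted p = 0.0147) were called lower as well, making 4 of 9 against 1.19% of genes, among 754 called. At this step 5 of 7 neuronal markers rose, with sums of 13463 to 15391 at day 17 and 5091 to 8651 at day 10. Of 7 endoderm and yolk sac markers 3 rose, with sums of 1248 to 2157 at day 17 and 205 to 421 at day 10; 3 of 11 neuroepithelial markers rose and 4 of 7 pluripotency markers fell. Whether these cells bear on the falls of DUSP6 and IL17RD was not tested. Between day 10 and day 17 under bFGF 1 of 9 had an unadjusted p under 0.05. The share of all genes at that threshold was not computed. The count of members called was 0 of 9 by limma and 0 with the block. Over all genes 0.662% were called higher and 0.389% lower there, 208 genes (446 with the block). DUSP6 changed by 0.11 ± 0.36 in that comparison and ETV5 by 0.06 ± 0.39. IER3 had 2511, 2536 and 4965 at day 17 and 2003, 1148 and 1645 at day 10 under bFGF, with no overlap and a change of 1.01 ± 0.32 (adjusted p = 0.224). The comparisons of this course and of bFGF share groups, so their values are not independent.

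**Figure D3:**
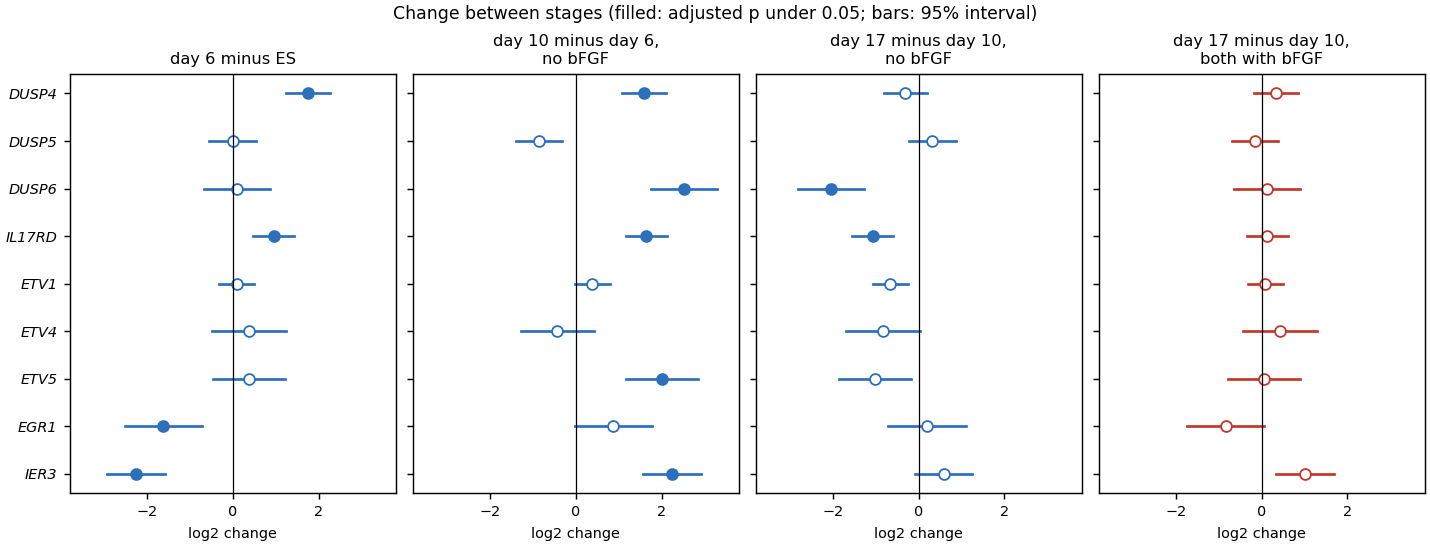
Change of the 9 genes between stages, as log2 of (signal + 16) at the later minus the earlier stage, with 95% intervals and 1 panel a step; filled points were called. Between day 6 and day 10 without bFGF 5 points are filled on the right, and between day 10 and day 17 under bFGF none is filled.

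Ordered by mean signal, DUSP6 stood at 304 ± 56.4 in ES cells (SD, n = 3 here and below), 336 ± 109 in embryoid bodies, 460.2 ± 106 in untreated day 17, 2038 ± 755 in untreated day 10, 3274 ± 1447 in day 10 with bFGF and 3374 ± 874 in day 17 with bFGF. Only the step between untreated day 17 and untreated day 10 separated neighbours whose ranges did not overlap. IL17RD and ETV5 had the same order of groups. For IL17RD all neighbours were apart except the 2 groups with bFGF, and for ETV5 untreated day 17 stood apart from both its neighbours. ETV4 was highest in day 17 with bFGF (190.0 ± 61.7) and lowest in untreated day 17 (30.3 ± 9.71). The next group, ES cells (71.9 ± 29.5), was only narrowly apart from it, with a lowest signal of 42.4 against a highest of 41.5. Pool 2 of untreated day 10 (26.7) lay within the untreated day 17 range. For DUSP4 embryoid bodies (269.7 ± 24.1) and ES cells (70.1 ± 21.3) were the lowest groups, apart from each other and from the rest, and its 4 neuroepithelial groups, with means of 682 to 969, overlapped as neighbours.

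IER3 was lowest in embryoid bodies (115 ± 15.5) and highest in day 17 with bFGF (3337 ± 1409.8), both apart from their neighbours in the order. EGR1 was lowest in embryoid bodies (235 ± 50.9) and highest in ES cells (747 ± 68.6). Its only neighbours without overlap were day 17 with bFGF (277 ± 91.0) and untreated day 17 (512 ± 105). For DUSP5, with means from 51.3 in untreated day 10 to 109 in ES cells, and for ETV1, with means from 552 in untreated day 17 to 887 in untreated day 10, every pair of neighbours overlapped.

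Of the 25 probe sets, 16 were not the one kept, and DUSP5 and IER3 had no other. In a fit of all probe sets, both other sets of DUSP6 were called higher with bFGF at day 17, and the 3 changes ran from 2.61 to 2.88. The second set of ETV4 was called higher too (1.95, adjusted p = 0.0238), while the kept ETV4 set missed the threshold in that fit (adjusted p = 0.0561). The second set of IL17RD changed by 1.47 and was not called (adjusted p = 0.229). The 4 other sets of ETV5 changed by 0.32 or more, none called; the smallest change was on a set with group means of 9.70 to 21.2, below the medians of the arrays. The sets of EGR1 changed by -0.87 to -0.09. Between ES cells and day 6 the other IL17RD set changed by -0.01, against 0.95 for the kept one, so that rise rests on 1 probe set. In the same step another set of EGR1 was called lower (-2.10, adjusted p = 0.0108). Between day 6 and day 10 both other sets of DUSP4 and of DUSP6, the other set of IL17RD and 3 of the 4 other sets of ETV5 were called higher with the kept ones.

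**Figure D4:**
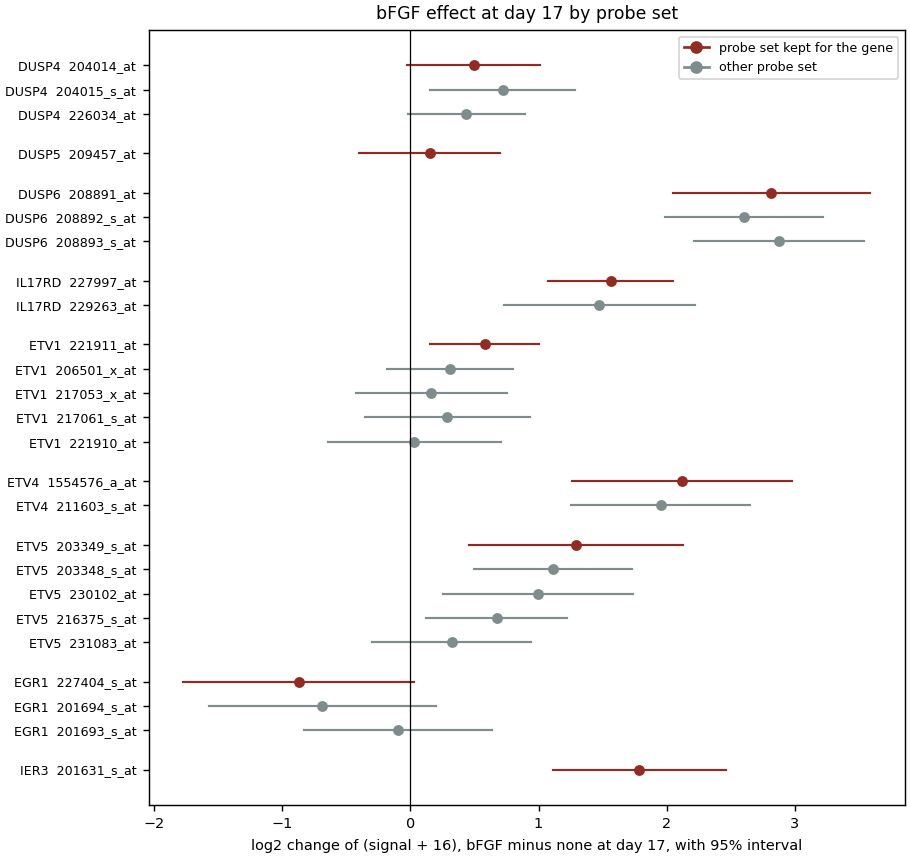
Change with bFGF at day 17 for each of the 25 probe sets, as log2 of (signal + 16) with bFGF minus without it, with 95% intervals and the kept probe set in red. The 3 DUSP6 sets lie between 2.61 and 2.88.

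As a description of likeness over the 18 arrays, which share groups and pool numbers, Pearson's r was computed between each member and 11864 genes, those in the upper 60% by mean signal. DUSP6 was most like SPRY2 (0.982), SPRY1 (0.970) and ETV5 (0.944). ETV5 was most like SPRY2 (0.955), DUSP6 and CBFB (0.941). SPRY1 and SPRY2 encode Sprouty proteins, inhibitors of receptor tyrosine kinase signalling. DUSP4 was most like FABP7 (0.983), PROS1 (0.976) and RNF145 (0.975), FABP7 being a fatty acid binding protein of neural precursors. IL17RD was most like MECOM (0.972), ST6GALNAC5 (0.947) and GRK5 (0.946), and IER3 was most like GNG11 (0.973), TFPI2 (0.952) and CD59 (0.922). The highest values were lower for the rest: TNFRSF21 (0.768), SPRY4 (0.739) and FKBP5 (0.724) for ETV4, SRPK1 (0.772), LINC01234 (0.743) and C21orf91 (0.727) for ETV1. They were RBM11 (0.824), S100A6 (0.687) and ELOA-AS1 (0.676) for EGR1, and PLEKHB2 (0.768), USP14 (0.765) and SYTL1 (0.759) for DUSP5.

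**Figure D5:**
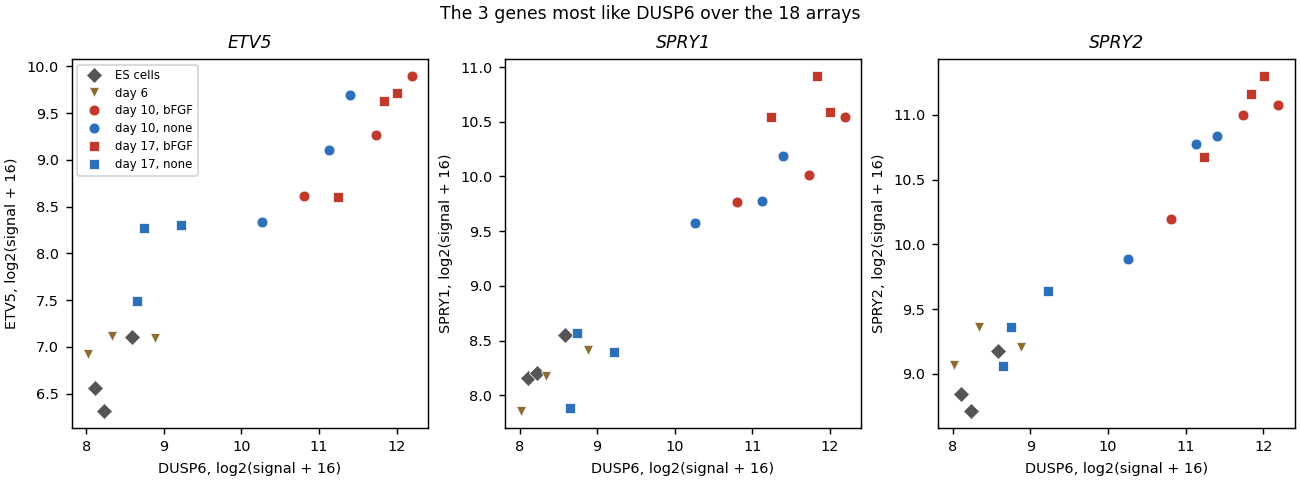
Log2 of (signal + 16) of ETV5, SPRY1 and SPRY2, each against that of DUSP6, with 1 point for each of the 18 arrays, coloured by group. On the DUSP6 axis the untreated day 17 arrays lie near the ES and day 6 arrays, and r with DUSP6 was 0.944 for ETV5, 0.970 for SPRY1 and 0.982 for SPRY2.

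Other genes of the pathway were counted in lists, which were also chosen with earlier results of these data known. Of 10 genes, FGF feedback inhibitors except for FLRT3, 3 rose with bFGF at day 17. They were SPRY1 (2.40, adjusted p = 0.00123), SPRY4 (2.06, adjusted p = 0.00806) and SPRY2 (1.69, adjusted p = 0.0151). The list's median change was 0.40, against -0.01 for all genes. At day 10 it had 0 calls with bFGF, a median of 0.20 and -0.02 for all genes. Without bFGF, SPRY1 (1.70, adjusted p = 0.000461), SPRED3 (1.40, adjusted p = 0.00179) and SPRY2 (1.29, adjusted p = 0.0119) rose between day 6 and day 10. SPRY1 then fell by day 17 (-1.56, adjusted p = 0.00321), the 1 member of the list called there. Between ES cells and day 6 the 1 call among the 10 was FLRT3, which rose (4.06). It encodes a membrane protein that binds FGF receptors, and no inhibitor of the list was called at that step.

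The 7 MAPK phosphatases outside the members had 0 calls with bFGF at either day, with medians of -0.12 at day 17 and -0.08 at day 10. Their only call was DUSP1, a nuclear phosphatase of stress kinases, which rose between day 6 and day 10 (1.36, adjusted p = 0.0143). Of the ERK cascade itself 16 of 23 listed genes were measured, and the others are not analysed here. None of the 16 was called with bFGF at either day (medians 0.03 at day 17 and 0.17 at day 10). RPS6KA3, a kinase downstream of ERK, rose between day 6 and day 10 (0.98, adjusted p = 0.0332), 1 of 16. Among 18 other ETS factors the single call in the 7 comparisons was ETS1, which fell between ES cells and day 6 (-1.55, adjusted p = 0.0370). CIC, ATXN1 and ATXN1L, the repressor of ETV genes and its partners, had no call in any of the 7, with medians of -0.21 at day 17 and 0.06 at day 10 with bFGF. Of 22 immediate early genes 20 were measured, and PHLDA1 was the 1 called with bFGF at each day (day 17 1.29, adjusted p = 0.0143; day 10 1.22, adjusted p = 0.0495), while the list's medians were 0.05 at day 17 and 0.14 at day 10.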

How the data were processed

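RNA pools were hybridised to Affymetrix arrays, in 1 colour, that carry 54675 probe sets. The deposited table holds a linear signal (intensity) for each probe set and array. That the authors had scaled it is taken from the values, whose 2% trimmed mean was 150.016 to 150.026 on the 18 arrays; which software, background method or detection calls were applied is not given in the sources used here. No further normalization was applied. Gene names came from the platform annotation (41097 probe sets name 1 gene, 1801 several, 11777 none), _x_at sets were dropped where a gene had another, and the 1 with the highest mean of log2(signal + 16) was kept, which gave 19775 genes. With a pseudocount of 16 the log2 scale understates changes of low signals.

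limma 3.58.1 in R 4.3.3 fitted 1 mean per group over all 18 arrays (lmFit, eBayes, 12 residual degrees of freedom), with Benjamini-Hochberg adjustment over the 19775 genes and a threshold of 0.05, for 7 comparisons; its intervals are at 95%. The fit was tested on simulated data. The 9 genes, the pathway lists and the marker lists were chosen with earlier results of these data known. Named genes are the members, up to 3 called genes of each list in a comparison, and the 3 genes most like each member. Members whose promoters are not printed are named only.

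The pool numbers come from the titles, except that of ES pool 1, which follows the order of the samples (for 1 bFGF day 10 array the description disagrees with the title, which was followed). Across genes, same-numbered neuroepithelial arrays deviated together from their group means (r from 0.317 to 0.693 in 18 pairs), as did day 6 and ES arrays (0.209 to 0.383). Among the neuroepithelial pairs those of pool 2 were the highest (0.606 to 0.693), and pool 1 of a group also correlated with pool 3 of others (up to 0.265). How far the pool 2 array set accounts for these values was not tested. The numbers were taken to pair the same-numbered arrays. Between day 10 and day 6 the lowest r of same-numbered arrays was 0.0749, and the numbers were not taken to pair those groups. The labelled passages of ES and day 6 pools match by number in pools 1 and 3. In pool 2 they do not: 24, 25 and 26 in ES cells, but 27, 28 and 31 at day 6, those of pool 1. The block for day 6 against ES cells goes against the labels there. Each comparison was also run with the pool number as a block (fixed, then random), without each array, without pool 2, and with the 4 raised arrays as a term. Further settings were quantile scaling, pseudocounts of 1 and 64, a trended and robust prior, a fit restricted to the arrays compared, genes in the upper 60% by signal, every probe set separately, and probe sets averaged by gene. The figures were drawn with matplotlib 3.10.9.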

Additional observations from a re-analysis of the deposited data

Results flagged for a closer look

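ETV1 was the 1 member whose bFGF effect ran one way in every pool at day 17 and the other way in every pool at day 10. With bFGF it was higher in 3 of 3 same-numbered pools at day 17 (log2 changes 0.61, 0.72 and 0.41) and lower in 3 of 3 at day 10 (-0.02, -0.18 and -0.31). The test of the difference, day 17 effect minus day 10 effect, gave 0.75 ± 0.27 and was not called (adjusted p = 0.999952), so a difference between the days is not shown. These values are from the kept probe set. On the 4 other sets of ETV1 the day 17 changes were 0.03 to 0.31, none called, with overlapping groups. At day 10 theirs ran from -0.24 to 0.001.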

How the results depend on the processing

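Over 31 alternatives, 1854 of 1953 member changes kept their direction and call, 54 lost the call, 18 gained one and 27, none of them among the 15 called, changed sign; except where fewer genes or samples entered, the cause was not tested. Pools are few, signals near the array medians have no detection call, and pool 2 of the neuroepithelial groups has raised low signals.

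Leaving out 1 array at a time gave 3 to 19 genes called for bFGF at day 10, 22 to 73 (2 to 4 members) for bFGF at day 17, 0 to 1 for the difference, 462 to 776 (2 to 4 members) for day 6 against ES cells, 842 to 1326 (5 to 6 members) for day 10 against day 6, 206 to 409 (1 to 2 members) for day 17 against day 10 and 113 to 219 for the same under bFGF.

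With the pool number as a block (pairing), fixed and random in turn, 34 and 38 genes (0 and 1 member) were called for bFGF at day 10, 120 and 122 for bFGF at day 17, 1 and 1 for the difference, 1454 and 1363 for day 6 against ES cells, 2512 and 2300 for day 10 against day 6, where DUSP5 joined the called members (adjusted p = 0.0138 and 0.0136; the pool numbers do not pair these groups), 754 and 754 (4 and 4 members) for day 17 against day 10, and 446 and 447 under bFGF. Beside the calls given above, the fixed block changed no other. With the raised arrays as a term the counts were 37 (1 member) for bFGF at day 10, 102 at day 17, 1 for the difference, 1171 for day 6 against ES cells, 645 for day 17 against day 10 and 362 under bFGF.

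A pseudocount of 1 gave 2 genes for bFGF at day 10, 20 (2 members) at day 17, 226 for day 17 against day 10 and 113 under bFGF; a pseudocount of 64 gave 1 for the difference. The compared groups alone gave 0 for bFGF at day 10, 0 (0 members) at day 17, 647 for day 10 against day 6, 34 (0 members) for day 17 against day 10 and 6 under bFGF. Averaging the probe sets of each gene gave 10 for bFGF at day 10, all probe sets 2123 for day 10 against day 6, and quantile scaling 2 members for day 6 against ES cells. Without pool 2 of the neuroepithelial groups, and of all groups, the counts were 4 and 4 for bFGF at day 10, 22 genes in the second at day 17 (2 and 1 members), 2 members in the second for day 6 against ES cells, 813 genes in the second for day 10 against day 6, 229 and 182 (1 and 1 members) for day 17 against day 10, and 106 and 92 under bFGF.

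Sign changes came in small, uncalled changes. The bFGF change of DUSP5 at day 17 became -0.021 without either set of pool 2 arrays. The day 6 change of ETV1 became -0.15 with mean probe sets. That of ETV4 at day 10 became 0.041 without pool 2 of the neuroepithelial groups. Under bFGF between day 10 and day 17, DUSP6 became -0.043 and ETV1 -0.075 without either pool 2 set, and ETV1 -0.093 with mean probe sets.

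Leaving out 1 array at a time, the changes that crossed zero ran for bFGF at day 10 from -0.14 to 0.53 for ETV5, -0.31 to 0.77 for EGR1; for day 6 against ES cells from -0.18 to 0.20 for DUSP5, -0.13 to 0.30 for DUSP6, -0.10 to 0.25 for ETV1; for day 10 against day 6 from -0.73 to 0.041 for ETV4; for day 17 against day 10 from -0.28 to 0.80 for EGR1; for the same under bFGF from -0.29 to 0.10 for DUSP5, -0.27 to 0.42 for DUSP6, -0.018 to 0.17 for ETV1, -0.27 to 0.41 for ETV5.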

Other observations

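Immediate early genes other than EGR1 and IER3 moved along the course from ES cells to neuroepithelium without added bFGF. Between ES cells and day 6, MYC, a growth-promoting transcription factor (-1.41, adjusted p = 0.000405), and KLF10, a zinc finger factor (-0.99, adjusted p = 0.0421), fell, 2 of the 20 measured. Between day 6 and day 10 without bFGF 4 rose and 1 fell. The rises were of ATF3 (1.14), FOSL2 (1.08) and JUN (0.87), which encode parts of dimeric AP-1 and stress-response factors, and of MYC (0.77), with adjusted p from 0.00348 to 0.0292. JUN and MYC were named at this step after their values were seen. PHLDA1 fell (-1.35, adjusted p = 0.000899). Between untreated day 10 and day 17, JUN rose further (0.82, adjusted p = 0.0149), 1 of 20. The list's median change was -0.35 between ES cells and day 6 and 0.45 between day 6 and day 10, against 0.00 and 0.09 for all genes.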
